A study of Mus musculus with 6 samples.

Results

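The 10 genes described here encode osteopontin (Spp1), pigment epithelium-derived factor (Serpinf1) and 8 further secreted or shed proteins of the matrix around a cell: Sparc, Serpine2, Timp1, Timp2, Timp3, Gpnmb, Tgfb1 and Thbs1. They were chosen by symbol out of the 25215 genes of a single-cell expression table, and the choice used measured values: the opposite levels of Spp1 and Serpinf1 in R499 tumors, the share of cells with each gene, and how often the genes were found in the same cell. Those values are therefore given as a description, without a test. Of the 10 genes, 9 were above 0 in more than 5 retained cells and entered the fit of 11264 genes, and Serpine2 was listed at 0 in all 602 cells.

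The cells came from subcutaneous melanomas in C57BL/6 mice, 6 mice in 3 conditions with 2 mice each. Each mouse received 50000 tumor cells on day 0, on the flanks, and the tumors were taken on day 15. B16 and B16PD1 tumors grew from B16-F10, a mouse melanoma cell line. B16 mice were untreated, and B16PD1 mice received 200 µg of antibody to PD1, a receptor that restrains T cells, on days 5, 8 and 11. R499 tumors, untreated, grew from the R499 line, taken from a single B16 tumor that had grown back after radiation with antibody to CTLA4, so a difference between R499 and B16 is a difference between 2 lines with 1 history each. All tumors were sorted for CD45-negative cells, which takes out most blood-derived cells, and full-length cDNA of single cells was sequenced. The comparisons ask what differed after anti-PD1 within one line, and what differed between the resistant line and its parent. A value below is the mean over the retained cells of a tumor of log2(TPM + 1), where TPM is the transcript abundance of RSEM scaled to the same total in each cell, and the tumor is the replicate.

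Retained cells numbered 75 to 91 per tumor, 507 in all, with tumor medians of 3141 to 3838.5 genes detected per cell. The deposited values hold no read counts, so depth in reads is unknown and the 95% Wilson intervals on shares of cells cover counting error only. The melanocyte genes Dct, Tyrp1 and Pmel were detected in all 507 cells. Of 16 macrophage markers, 14 were in under 5% of cells and the most frequent, Cd68, was in 17.9%. Of 10 fibroblast markers 7 were above 0 in a retained cell, and the most frequent, Postn, was in 2.17%. Of 8 endothelial markers 4 were above 0 in a retained cell, and the most frequent, Egfl7, was in 22.3%. The rest, Col1a1, Pdgfra and Thy1 (fibroblast) and Cdh5, Kdr, Tek and Cldn5 (endothelial), were listed at 0 in all retained cells.

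Osteopontin is a phosphorylated matrix glycoprotein whose RGD motif is read by integrins and which also binds CD44. Melanomas, macrophages and bone cells make it, and it is cleaved by thrombin and by metalloproteinases. PEDF is a serpin that inhibits no protease; it is best known as an inhibitor of blood vessel growth and is made by pigment cells. The other genes include 2 matricellular glycoproteins (Sparc and Thbs1), a protease-inhibiting serpin (Serpine2, protease nexin-1), 3 tissue inhibitors of metalloproteinases (Timp1, Timp2 and Timp3), a melanosomal glycoprotein that is shed from the surface (Gpnmb) and a growth factor that matrix proteins store and release (Tgfb1).

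The 250 bases before the RefSeq start were searched for short motifs, and those of Spp1 and Serpinf1 are shown, since these are the genes with opposite levels in R499. They come from RefSeq on GRCm38.p6, which lists 9 of the 10 genes, and are written 5′ to 3′ in the direction of transcription. The Spp1 stretch lies at chr5:104434861-104435110 on the plus strand, upstream of the one of 2 listed starts that is nearest to the start of the annotated gene, and the Serpinf1 stretch at chr11:75422624-75422873 on the minus strand. The last 78 bases of the Serpinf1 stretch lie inside the gene as GENCODE annotates it, so only the 172 bases before that gene, chr11:75422702-75422873, are printed. Capitals mark matches, on either strand, to 4 of the 7 motifs searched.
Spp1: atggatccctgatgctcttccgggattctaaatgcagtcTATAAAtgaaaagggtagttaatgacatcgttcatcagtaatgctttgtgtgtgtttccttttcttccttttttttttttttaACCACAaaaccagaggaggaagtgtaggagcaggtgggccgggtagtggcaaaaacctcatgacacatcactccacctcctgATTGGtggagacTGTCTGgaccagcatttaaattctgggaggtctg
Serpinf1: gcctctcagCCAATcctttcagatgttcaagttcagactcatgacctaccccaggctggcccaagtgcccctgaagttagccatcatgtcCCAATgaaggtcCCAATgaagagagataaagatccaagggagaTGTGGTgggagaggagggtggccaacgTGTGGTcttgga
The capitals in Spp1 are TATAAA (the TATA box letters), ACCACA (the RUNX core), ATTGG (which is CCAAT read on the other strand) and TGTCTG (which is the SMAD core CAGACA read on the other strand). Those in Serpinf1 are CCAAT at 3 places, TGTGGT (the RUNX core again, on the other strand) at 2 places. The 78 bases not printed hold CACATG (the E-box CATGTG on the other strand) and CAGACA. Both stretches of 250 bases thus hold the CCAAT box, the RUNX core and the SMAD core, while TATAAA stands in the Spp1 stretch alone and CATGTG in the Serpinf1 stretch alone, among the 9 genes listed. The CCAAT box was also in Timp1 and Timp2, the RUNX core in Gpnmb and the SMAD core in Sparc, but the stretches of Sparc and Timp2 lie wholly inside their annotated genes. The AP-1 motif TGANTCA and the E-box CACGTG were in none of the 9. No motif overlapped another in these stretches. Among 32851 promoters of the same length, CCAAT was in 33.8%, CAGACA in 17.1%, ACCACA in 14%, TATAAA in 12.4%, CATGTG in 12.3%, TGANTCA in 6.75% and CACGTG in 6.02%. A match of letters is not a bound site.

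Spp1 (chr5:104435118-104441050, plus strand, GRCm38) was detected in 86 of 507 cells (17.0%, 95% interval 13.9 to 20.5%). The gene model Gm42793 overlaps it on the same strand and was not analysed here, so reads of the 2 cannot be told apart. Its level was 0.68 in tumor B16007 and 0.31 in B16008, 0.51 in B16PD1000 and 0.62 in B16PD1002, and 1.66 in R499015 and 2.20 in R499016. Pairs of values below keep this order within each condition. Both R499 tumors lay above the other 4, which overlapped one another. The group means were 0.50 ± 0.26 (SD, n = 2) for B16, 0.56 ± 0.08 for B16PD1 and 1.93 ± 0.38 for R499. R499 was higher than B16 by 1.43 (SE 0.25), a 2.70-fold difference on the log2(TPM + 1) scale, which understates the change of a gene at 0 in most cells. It was higher than B16PD1 by 1.36 (SE 0.25).

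More cells held Spp1 in R499. The shares were 12.1% and 6.98% (B16), 10.5% and 12.5% (B16PD1) and 27.2% and 36.0% (R499), from 11, 6, 9, 11, 22 and 27 cells. Among the cells that held it, the median was 49.2 and 20.3 TPM (B16), 20.6 and 44.7 TPM (B16PD1) and 96.9 and 79.1 TPM (R499). Share and level in the positive cells thus both stood higher in the 2 R499 tumors than in the other 4. Averaged over all cells without a log, Spp1 was 5.10 ± 5.03 TPM (SD, n = 2) in B16, 6.25 ± 1.02 in B16PD1 and 42.0 ± 2.88 in R499. Even there most cells were at 0: the upper quartile was 5.61 TPM in R499015 and 55.3 TPM in R499016, and the highest single cell, in R499015, held 905 TPM.

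Serpinf1 (chr11:75409769-75422701, minus strand) went the other way. It was detected in 163 of 507 cells (32.1%, 95% interval 28.2 to 36.3%). Its level was 2.34 and 2.89 (B16), 3.20 and 2.57 (B16PD1) and 0.41 and 1.20 (R499). Both R499 tumors lay below all others, and they differed from each other by more than the B16 tumors did. The group means were 2.62 ± 0.39 (SD, n = 2), 2.89 ± 0.45 and 0.81 ± 0.56. R499 was lower than B16 by a difference of -1.81 (SE 0.35), and lower than B16PD1 by one of -2.08 (SE 0.35).

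The share of cells with Serpinf1 was 34.1% and 40.7% (B16), 48.8% and 38.6% (B16PD1) and 7.41% and 20% (R499). That is 31, 35, 42, 34, 6 and 15 cells. In the positive cells the median was 151 and 148 TPM (B16), 128 and 102 TPM (B16PD1) and 56.4 and 63.8 TPM (R499). Fewer cells held the gene in R499 and those that did held less. The mean without a log was 90.8 ± 19.9 TPM (SD, n = 2) in B16, 75.6 ± 10.4 in B16PD1 and 12.01 ± 10.8 in R499.

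**Figure D1:**
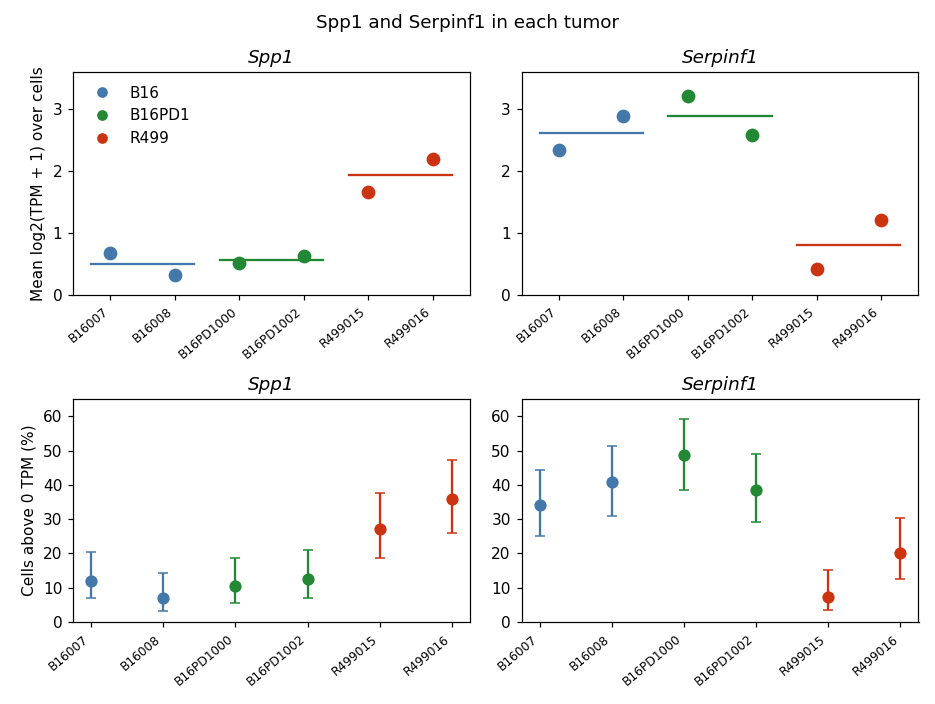
Spp1 (left) and Serpinf1 (right) in each of the 6 tumors, colored by condition. The upper panels show the mean log2(TPM + 1) over the retained cells, with a line at the mean of 2 tumors, and the lower panels the percent of cells above 0 TPM with its 95% Wilson interval. Spp1 is highest in both R499 tumors (27.2% and 36.0% of cells), and Serpinf1 is lowest there (7.41% and 20%).

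The number of genes detected per cell was lower in R499015 (median 3141) than elsewhere, and in all 6 tumors cells with Spp1 or with Serpinf1 had more genes detected than cells without. Over all cells the medians were 4247.5 genes with Spp1 and 3371 without, and 4262 with Serpinf1 and 3236.5 without. The cells were therefore also split at 2947.33 and 4235.67 genes detected into tertiles of all retained cells. In the lowest tertile Spp1 was in 8.57% and 16.7% of the R499 cells and in 0 to 6.90% of the cells of the other 4 tumors. In the middle tertile it was in 42.3% and 43.5% against 5.88 to 14.8%, and in the highest tertile in 40% and 54.5% against 14.3 to 22.9%. Serpinf1 was in 2.86% and 10% of the R499 cells of the lowest tertile against 16.7 to 29.6% in the other tumors. It was in 11.5% and 26.1% against 29.4 to 48.1% in the middle tertile, and in 10% and 27.3% against 48.6 to 71.4% in the highest. The 2 R499 tumors did not overlap the other 4 in any tertile, for either gene, but some margins rest on few cells. For Spp1 in the lowest tertile it was 3 of 35 cells in R499015 against 2 of 29 in B16007. For Serpinf1 in the middle tertile it was 6 of 23 in R499016 against 10 of 34 in B16008. These shares are also among the values that chose the genes.

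**Figure D2:**
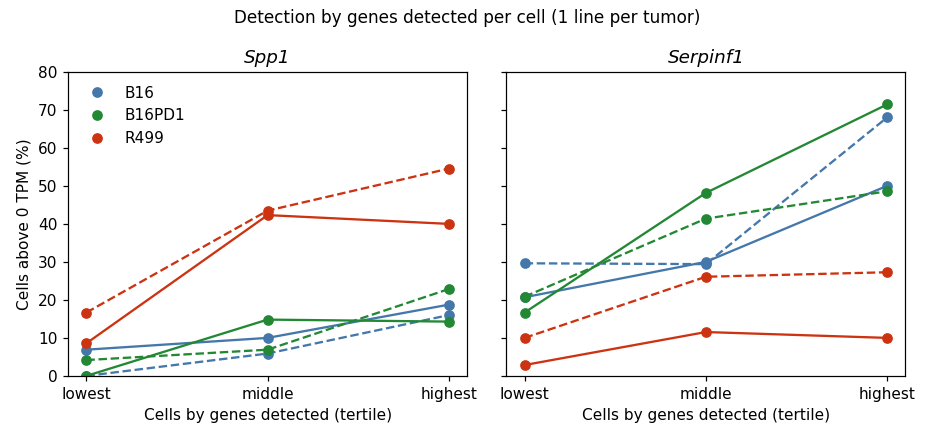
Percent of cells above 0 TPM for Spp1 and Serpinf1 in the lowest, middle and highest tertile of cells by genes detected, with 1 line per tumor (solid and dashed for the 2 tumors of a condition). Detection of both genes is higher in cells with more genes detected, and within each tertile the R499 lines lie above the others for Spp1 and below them for Serpinf1.

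The same directions were seen in the 95 cells that the filter left out, which entered none of the levels and shares of these 2 genes above. The choice of the genes was made on the whole table, these cells included, so the same directions here are no separate support. The cells were pooled over the tumors of each condition. Spp1 was in 19 of 45 such R499 cells (42.2%, 95% interval 29.0 to 56.7%), 3 of 24 B16 cells (12.5%, 4.34 to 31.0%) and 2 of 26 B16PD1 cells (7.69%, 2.14 to 24.1%). Serpinf1 was in 5 of 45 R499 cells (11.1%, 4.84 to 23.5%), 8 of 24 B16 cells (33.3%, 18.0 to 53.3%) and 8 of 26 B16PD1 cells (30.8%, 16.5 to 49.99%). These cells come from the same tumors and are not further replicates.

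After anti-PD1, in the contrast that did not choose the genes, neither gene passed the test. The limma fit over 11264 genes gave B16PD1 minus B16 as 0.07 for Spp1 (SE 0.25, 95% interval -0.45 to 0.59, adjusted p = 0.994) and as 0.27 for Serpinf1 (SE 0.35, 95% interval -0.48 to 1.02, adjusted p = 0.990). With 2 tumors a condition, changes inside these intervals are not excluded, and a change beyond them could also miss the adjusted threshold. None of the 9 genes tested passed an adjusted p of 0.05, where 0% of all genes did, and none had an unadjusted p under 0.05, where 4.69% of all genes did. The B16PD1 and B16 tumors did not overlap for 2 of the 9 genes, Timp2 and Tgfb1, both higher after treatment, against 33.3% of all genes (17.9% higher and 15.4% lower). For Tgfb1 this rests on 2 and 0 cells (B16) against 2 and 2 cells (B16PD1).

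Sparc, an acidic calcium-binding glycoprotein that binds collagen, is at chr11:55394500-55423183 on the minus strand. It was detected in 462 of 507 cells (91.1%). Its level was 7.65 and 8.13 (B16), 7.66 and 7.47 (B16PD1) and 7.54 and 7.16 (R499). Both R499 tumors were below both B16 tumors, but R499015 lay above B16PD1002. R499 minus B16 was -0.54 (SE 0.30), against -1.81 for Serpinf1. It was -0.30 without B16008, -0.35 without R499016 and -0.98 with genes detected as a covariate. B16PD1 minus B16 was -0.32 (SE 0.30, adjusted p = 0.989 by limma).

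Gpnmb, a transmembrane glycoprotein of melanosomes whose outer part is released by metalloproteinases, lies at chr6:49036546-49070929 on the plus strand. It was the most abundant of the 10 genes and was detected in all 507 cells. Its level was 10.49 and 9.85 (B16), 10.07 and 9.92 (B16PD1) and 10.61 and 10.24 (R499). In mean TPM these are 1837 and 1176, 1351 and 1256, and 1984 and 1474. The B16 tumors alone spanned most of the range, so R499 minus B16 (0.26, SE 0.25) was near 1 standard error, and was -0.066 without B16008 and 0.58 without B16007. The R499 tumors lay above both B16PD1 tumors, by 0.43 (SE 0.25), or 0.25 without R499015.

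The 3 tissue inhibitors of metalloproteinases bind and block the active site of matrix-degrading enzymes. Timp1 (chrX:20870166-20874735, plus strand) was in 133 cells (26.2%), with levels of 2.04 and 1.03 (B16), 1.86 and 1.82 (B16PD1) and 1.83 and 1.19 (R499). The 2 B16 tumors differed more than any of the group means did. Timp2 (chr11:118301069-118355740, minus strand), which also helps activate pro-MMP2, was in 199 cells (39.3%), with levels of 1.53 and 1.42, 1.78 and 1.95, and 2.003 and 1.47. Timp3 (chr10:86300372-86349506, plus strand), which stays bound to the matrix and also inhibits ADAM proteases, was in 126 cells (24.9%), with levels of 0.96 and 0.81, 1.13 and 0.88, and 1.62 and 1.07. Timp3 was the only one of the 3 whose R499 tumors did not overlap the B16 tumors, with a difference of 0.46 (SE 0.25), which was 0.19 without R499015 and 0.73 without R499016. B16PD1 minus B16 was 0.30 (SE 0.35) for Timp1, 0.39 (SE 0.30) for Timp2 and 0.13 (SE 0.25) for Timp3, with adjusted p = 0.989, 0.989 and 0.993 by limma. Timp1 lies inside Syn1 and Timp3 inside Syn3, on the opposite strand in both cases. The counting is not stated to use strand. Syn1 was listed at 0 in all retained cells and Syn3 was above 0 in 14. On the same strand, Cep295nl overlaps Timp2 and was listed at 0 in all retained cells.

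Thbs1 and Tgfb1 were rare. Thbs1 (chr2:118111876-118127133, plus strand), a large glycoprotein that activates latent TGF-beta and binds CD36 and CD47, was in 9 of 507 cells (1.78%, 95% interval 0.937 to 3.34%). It was in 0 to 2 cells of each tumor. The noncoding Gm29233, not analysed here, overlaps it on the opposite strand. Tgfb1 (chr7:25687002-25705077, plus strand) was in 7 cells (1.38%, 95% interval 0.670 to 2.82%), also 0 to 2 in each tumor. At this depth no difference in either gene could be read from a tumor. Serpine2 (chr1:79794197-79861180, minus strand), an inhibitor of thrombin and of plasminogen activators, was listed at 0 in every deposited cell. A count of 0 in 507 retained cells allows a share of up to 0.592% of cells above 0 TPM (3 cells of 507). This limit covers counting error only and says nothing of cells that express the gene below detection, or of whether it was measured at all.

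**Figure D3:**
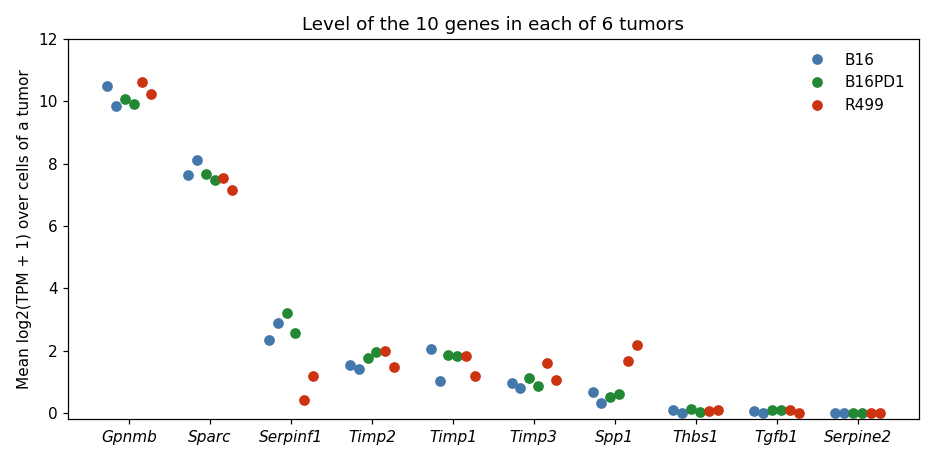
Mean log2(TPM + 1) of the 10 genes in each of the 6 tumors, in order of their mean level, with points colored by condition. Gpnmb and Sparc stand clear of the rest, Serpinf1 to Spp1 overlap in their ranges over tumors, and Thbs1, Tgfb1 and Serpine2 lie at or near 0.

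In level per length, Gpnmb came first (mean of all tumors' cells 10.20), Sparc second (7.60), and Serpinf1 (2.11), Timp2 (1.69), Timp1 (1.63), Timp3 (1.08) and Spp1 (0.996) followed. The ranges over tumors did not overlap between Gpnmb and Sparc, between Sparc and Serpinf1, or between Spp1 and Thbs1 (0.08). They overlapped between all neighbors from Serpinf1 to Spp1. The order of these 5 genes changed with the tumor: Spp1 was the lowest of them in all 4 B16 and B16PD1 tumors and the highest in R499016.

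**Figure D4:**
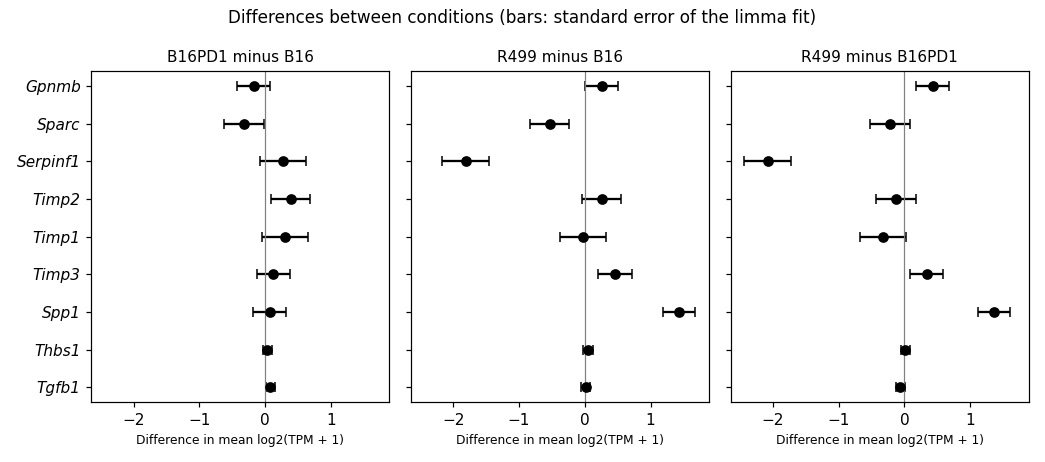
Differences in mean log2(TPM + 1) between conditions for the 9 genes tested, with bars of 1 standard error from the limma fit. Spp1 and Serpinf1 lie farthest from 0 in both contrasts with R499, in opposite directions (1.43 and -1.81 against B16), and all genes lie within 0.4 of 0 in B16PD1 minus B16.

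In R499 minus B16 the tumors of the 2 conditions did not overlap for 4 of 9 genes, Spp1 and Timp3 higher and Serpinf1 and Sparc lower, where 41.7% of all genes tested did not overlap (11.6% higher and 30.1% lower). In R499 minus B16PD1 this held for Spp1 and Gpnmb, which were higher, and Serpinf1 and Tgfb1, which were lower, where 41.5% of all genes did not overlap (10.2% higher and 31.3% lower). The 2 contrasts share the R499 tumors. The median difference over the 9 genes was 0.05 against B16 and -0.06 against B16PD1, where the medians over all genes were -0.07 and -0.09. Of the 9 genes, 6 lay above 0 and 3 below in the first contrast, and 4 above and 5 below in the second. Spp1 and Serpinf1 were chosen for opposite changes, so a split in direction was fixed by the choice. With each cell's mean subtracted, 7 lay above 0 and 2 below in the first contrast, and 6 above and 3 below in the second. The counts include Thbs1 and Tgfb1, which were in few cells.

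In single cells, Spp1 and Serpinf1 were found together in 26 cells, Spp1 alone in 60, Serpinf1 alone in 137 and neither in 284. By tumor, cells with both numbered 6 and 4 (B16), 3 and 4 (B16PD1) and 2 and 7 (R499). Their share was 5.65% of cells in B16, 4.02% in B16PD1 and 5.77% in R499, while cells with Spp1 alone made up 3.95%, 7.47% and 25.6%, and cells with Serpinf1 alone 31.6%, 39.7% and 7.69%. The product of the shares within each tumor gave 21.9 cells with both, so 1.19 times as many were seen. Taking the product within tertiles of genes detected in each tumor gave 26.6, for a ratio of 0.98. The genes were therefore found together about as often as their separate shares give, once cells of like gene number were compared. The mean over tumors of the within-tumor Pearson r of their levels, with genes detected removed, was -0.02 (range -0.23 to 0.08, 75 to 91 cells per tumor).

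**Figure D5:**
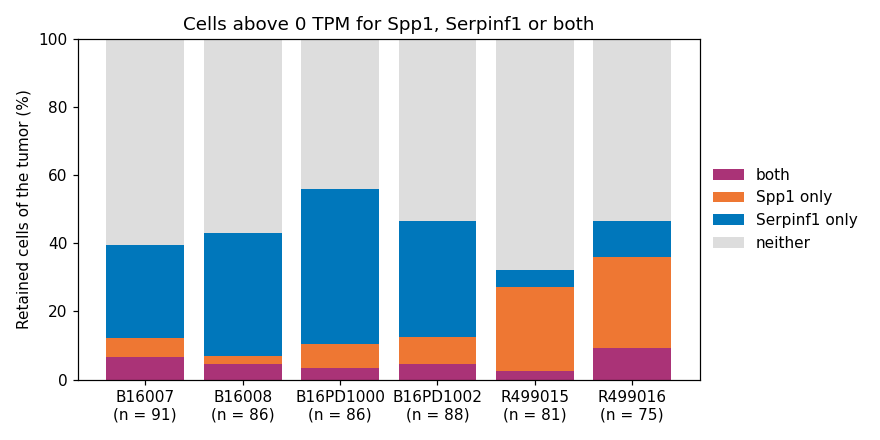
Percent of the retained cells of each tumor with both Spp1 and Serpinf1 above 0 TPM, Spp1 alone, Serpinf1 alone or neither. Cells with both make up 2.47 to 9.33% in every tumor, while the larger single class is Serpinf1 alone in B16 and B16PD1 and Spp1 alone in R499.

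Other pairs were similar. Spp1 and Timp2 shared 43 cells, 1.30 times the product within tumors and 1.12 times that within tertiles. Spp1 and Timp1 shared 29 cells (1.33 and 1.06 times), Timp1 and Timp2 shared 68 (1.28 and 1.10 times), and Serpinf1 and Timp3 shared 47 (1.22 and 1.05 times). In each of these pairs the ratio was nearer to 1 within tertiles. A cell held a median of 3 of the 10 genes, with a range of 1 to 7.

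The genes most like Spp1 and Serpinf1 across cells were sought among 8138 genes found in at least 10% of cells, by the mean of the 6 within-tumor correlations with genes detected removed. For Serpinf1 they were Angptl6, an angiopoietin-like secreted protein (mean r 0.22), Dhrs7, a dehydrogenase (0.22), Pck2, the mitochondrial enzyme that makes phosphoenolpyruvate (0.22), Iah1 (0.20) and Fkbp11, a chaperone of the endoplasmic reticulum (0.20). For Spp1 they were Nol7 (0.19), Zfp995 (0.17), Ube4a (0.17), Raly (0.16) and Ddx27 (0.15). Within single tumors Pck2 ranged from -0.24 to 0.38, Nol7 from -0.018 to 0.30 and Ddx27 from -0.0054 to 0.31. The other 7 were above 0 in all 6 tumors, but the genes were picked by the mean of these same 6 correlations. All the correlations are weak, and 1 in 100 genes exceeded 0.11 for Spp1 and 0.12 for Serpinf1. Of the other 6 genes described here that were in at least 10% of cells, Sparc was the nearest to Serpinf1 (0.13, range 0.04 to 0.21 over tumors, rank 58), and Gpnmb was among the genes most opposite to it (-0.11, range -0.25 to -0.02). The points of each correlation share a tumor and its libraries.

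Macrophages make osteopontin, so their markers were counted in the same cells. All 86 cells with Spp1 held Dct, Tyrp1 and Pmel, but so did all 421 cells without, so these genes cannot tell the cells apart. At least 1 of the 16 macrophage markers was above 0 in 41.9% of cells with Spp1 and in 24.9% of cells without, and cells with Spp1 had more genes detected. At least 3 of the markers were above 0 in 3 of the 86 cells and 2 of the other 421. The summed TPM of the 16 markers ranged over tumors from 23.2 to 414 in B16, 39.5 to 278 in B16PD1 and 24.0 to 64.8 in R499. Single markers varied in other ways: Cd68 was in 20.9% and 11.6% of cells (B16), 19.8% and 12.5% (B16PD1) and 25.9% and 17.3% (R499), and C1qb was in 4% of cells of R499016 and at most 1.23% elsewhere. Their part in the levels of Spp1 was not tested. Without the 5 cells of at least 3 markers, the shares with Spp1 were 11.2% and 6.98% (B16), 10.5% and 11.6% (B16PD1) and 26.3% and 36.0% (R499). A macrophage marker other than Cd68 and Fcer1g was above 0 in 17 of the 86 cells with Spp1 and 22 of the other 421. Lyz2 was in 6.98% of cells with Spp1 and 1.90% of cells without. Without the 39 cells with any macrophage marker other than Cd68 and Fcer1g, the shares were 9.76%, 7.06%, 8.54%, 11.5%, 25.3% and 30.3%. In R499016 this took Spp1 from 27 of 75 cells to 20 of 66. Both choices were made after the values were seen.

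Of the other lists, 7 of 10 fibroblast markers were found, with summed levels of 0.035 to 2.22 TPM in B16, 0.16 to 2.55 in B16PD1 and 1.23 to 3.01 in R499. Of the 8 endothelial markers 4 were found, mostly Egfl7 in 22.3% of cells. Egfl7 made up nearly all of the sum, with a mean of 52.3 TPM against 0.049 TPM for Pecam1, the next. The sum, and so in effect this 1 gene, was lower in R499 (18.3 to 31.8 TPM) than in B16 (48.0 to 64.5) and B16PD1 (43.7 to 103). All 10 melanocyte markers were found, with sums of 17651 to 17729 TPM in B16, 14847 to 15339 in B16PD1 and 17410 to 18056 in R499. The part of the fibroblast and endothelial sums in the levels of the 10 genes was not tested.

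The R499 cells were also split by whether Kalrn was detected. In R499016 Spp1 was in 22 of 48 cells with Kalrn (45.8%, 95% interval 32.6 to 59.7%) and in 5 of 27 without (18.5%, 8.18 to 36.7%), and in R499015 in 9 of 28 (32.1%, 17.9 to 50.7%) and 13 of 53 (24.5%, 14.9 to 37.6%). Serpinf1 was in 22.9% of cells with Kalrn and 14.8% without in R499016, and in 7.14% and 7.55% in R499015. The cells with Kalrn also had more genes detected, with medians of 4085 against 2573 in R499016 and 3634 against 2827 in R499015.

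The partners of these proteins were looked up in 8 lists, 148 genes in all, of which 121 were above 0 in a retained cell and 88 were tested. None of the 88 passed an adjusted p of 0.05 by limma in any of the 3 contrasts, where 0%, 0.0621% and 0.071% of all genes did, for anti-PD1 treatment, for R499 against B16 and for R499 against B16PD1 in turn. At an unadjusted p under 0.05 there were 5 (4.69% of all genes had such a p), 14 (10.5%) and 12 (10.2%). The median difference over the 88 genes was 0.02, -0.05 and -0.07, where that over all genes was 0.01, -0.07 and -0.09.

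Of the 11 receptors of osteopontin and other RGD-binding integrins, Cd44 was the most abundant (189 TPM, in 97.8% of cells), followed by the integrin subunits Itgb1 (62.4 TPM) and Itgav (28.6 TPM). Cd44 was at 7.43 and 6.73 (B16), 6.85 and 7.15 (B16PD1) and 7.16 and 7.06 (R499). Itgb3, which with Itgav forms the classical osteopontin receptor, was in 30 cells. The lowest p of the list in R499 minus B16 was that of Itga4, at -0.37 (SE 0.20, adjusted p = 0.547 by limma). Of 6 reported PEDF receptors, Atp5b, the catalytic subunit of ATP synthase, and Rpsa, the laminin receptor and ribosomal protein, were in nearly all cells (3291 and 2215 TPM). Pnpla2, the lipase that binds PEDF, was in 57.6% of cells, and Plxdc1 and Plxdc2 in 1 and 4 cells. Atp5b was 0.49 higher (SE 0.19) in R499 than in B16PD1 and Rpsa differed by -0.43 (SE 0.20), with adjusted p = 0.404 and 0.474 by limma.

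The thrombospondin receptor Cd47, which also signals to phagocytes, was at 2.98 and 2.58 (B16), 2.78 and 3.43 (B16PD1) and 1.92 and 2.07 (R499). Both R499 tumors lay below the other 4, by -0.79 (SE 0.33) against B16 and -1.11 (SE 0.33) against B16PD1, with adjusted p = 0.418 and 0.314 by limma. Calr, a chaperone that binds thrombospondin at the surface, differed by -0.75 (SE 0.27) between R499 and B16 (adjusted p = 0.378 by limma). Sdc4, a heparan sulfate proteoglycan, was the next most abundant of the list after Calr (59.7 and 408 TPM). Sdc1 had the lowest p in B16PD1 minus B16, at 0.64 (SE 0.29, adjusted p = 0.989 by limma).

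Of 23 other matricellular and adhesive glycoproteins, 10 were listed at 0 in all retained cells. These included Ibsp, Dmp1, Mepe and Dspp, which with Spp1 make up the small integrin-binding glycoprotein family and are its neighbors on chromosome 5. The most abundant were the galectins Lgals1 (2140 TPM) and Lgals3 (736 TPM) and the galectin-binding Lgals3bp (151 TPM). Lgals1 was at 10.7 and 10.1 in B16 and 11.2 and 11.0 in R499, a difference of 0.73 (SE 0.23, adjusted p = 0.342 by limma). Cyr61, a matricellular integrin ligand of the CCN family, was at 4.30 and 4.33 (B16), 4.12 and 4.32 (B16PD1) and 2.98 and 3.21 (R499). The difference from B16 was -1.22 (SE 0.32, adjusted p = 0.218 by limma), the lowest adjusted p of the 88 genes together with that of Adam9. Wisp1, of the same family, was in 15 cells and differed by -0.25 (SE 0.09) in B16PD1 minus B16.

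Collagens were in few cells, with Col1a1 at 0 and Col4a1 in 16 cells, while the enzymes and chaperone that mature them were not: Serpinh1, the collagen chaperone, was at 379 TPM, and the prolyl hydroxylases P4ha1 and P4ha2 at 57.8 and 43.3 TPM. Serpinh1 differed by -0.63 (SE 0.29) between B16PD1 and B16, with an adjusted p = 0.989 by limma. P4ha2 differed by -0.76 (SE 0.34) between R499 and B16, and Nid1, a basement membrane linker, by -0.27 (SE 0.14) between R499 and B16PD1, with adjusted p = 0.448 and 0.521 by limma. Of the enzymes that the TIMPs inhibit, Mmp7, Mmp8, Mmp9, Mmp16, Mmp17 and Mmp25 were listed at 0 and Mmp14 and Mmp2 were in 99 and 34 cells. Bsg, an inducer of metalloproteinases, was at 1014 TPM, and the proteases Adam17 and Adamts1 at 61.7 and 28.5 TPM. Adam9 was at 3.42 and 3.43 (B16), 2.94 and 3.34 (B16PD1) and 1.99 and 2.39 (R499). It differed by -1.24 (SE 0.32) from B16 and -0.95 (SE 0.32) from B16PD1, with adjusted p = 0.218 and 0.348 by limma. Reck, a membrane-bound inhibitor, was in 28 cells and differed by 0.24 (SE 0.10) in B16PD1 minus B16.

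Among plasminogen activators and serpins, the most abundant were F3, tissue factor (81.8 TPM), Serpinb6a, an intracellular serpin (78.5 TPM), and Plaur, the urokinase receptor (19.0 TPM). F3 was at 4.31 and 4.14 (B16), 4.41 and 3.97 (B16PD1) and 3.46 and 2.86 (R499), and differed by -1.06 (SE 0.35) from B16. Plaur was at 0.73 and 0.81, 1.16 and 1.08, and 0.34 and 0.53, and differed by -0.69 (SE 0.19) between R499 and B16PD1. Their adjusted p were 0.349 and 0.279 by limma. Serpini1 was in 7 cells, with the lowest p of the list after anti-PD1 (0.14, SE 0.07). For TGF-beta, Eng, Tgif1 and Smad2 were the most abundant (56.2, 25.5 and 23.2 TPM), and Tgfb2 was in 83 cells against 7 for Tgfb1. The receptor Tgfbr1 was at 2.22 and 2.15 (B16), 1.69 and 1.40 (B16PD1) and 1.44 and 1.51 (R499). It differed by -0.64 (SE 0.29) after anti-PD1 and by -0.71 (SE 0.29) in R499 minus B16, with adjusted p = 0.989 and 0.394 by limma. Smad7, an inhibitor of the pathway, was in 21 cells and differed by -0.19 (SE 0.08) between R499 and B16PD1.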

How the data were processed

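Per the labels and the study's methods, reads of sorted cells on the ICELL8 system were aligned with STAR in 2-pass mode and quantified with RSEM at default settings, on mm10, with versions and annotation not given in the sources used here. The authors deposited TPM, in which every cell has the same total, so a rise of one gene lowers the share of others. Columns name a tumor of a condition but no replicate number. They were taken by condition and called by the tumor names in the file. No 2 tumors shared a well position.

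Cells with more than 1000 genes above 0 TPM and less than 10% mitochondrial TPM were retained, as in the study, whose minimum of mapped reads could not be applied to TPM. It kept fewer cells. Doublets were not called. Genes above 0 in more than 5 retained cells were fitted. The tumor mean of log2(TPM + 1), a pseudocount of 1, was fitted with limma 3.58.1 (eBayes, trend; R 4.3.3) to all 6 tumors, with Benjamini-Hochberg adjustment, two-sided. Nothing says whether a tumor's cells came from 1 or both flanks. Motifs were searched in RefSeq promoters, and positions come from GENCODE M21 (GRCm38). Thbs1 had no promoter entry. The fit was tested on simulated data.

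The genes and lists were chosen with earlier results of these data known. From the lists the text names the 3 most abundant genes of each, any gene past the threshold and the gene with the lowest p per contrast. Kalrn, C1qb, the genes that overlap one of the 10, Itgb3, Plxdc1, Plxdc2, Col1a1, Col4a1, Tgfb2, the metalloproteinases, and the genes listed at 0 were named in addition, after their values were seen. So were Lyz2, Postn, Egfl7 and Pecam1. Alternatives changed the pseudocount, the filters on cells and genes, the scaling, the model and the tumors used. Other steps ran in Python 3.11.15 (pandas 2.3.3, numpy 2.4.6; intervals by scipy 1.17.1, plots by matplotlib 3.10.9).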

Additional observations from a re-analysis of the deposited data

How the results depend on the processing

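No paired analysis was possible because the columns of the table carry no replicate number. The mice are also not described as pairs across conditions, so a shared replicate number would not by itself make pairs. Spp1 stayed higher and Serpinf1 lower in R499 under all 16 alternatives, but the genes were chosen for these directions. Some of the 16 cannot change a difference: the filters on genes, limma without a trend, and leaving out a tumor of a condition outside the contrast. For Spp1 and then Serpinf1, R499 minus B16 was 2.15 and -2.59 with a pseudocount of 0.1, 0.77 and -1.06 with one of 10, and 3.11 and -3.10 as the log2 of the tumor's mean TPM + 1. R499 minus B16PD1 was then 2.02 and -3.07, 0.75 and -1.15, and 2.57 and -2.85. A pseudocount sets how far a cell at 0 lies from one above it. With mean genes detected as a covariate Spp1 differed by 1.86 and 2.05. Leaving out 1 tumor at a time gave Spp1 1.16 to 1.70 against B16 and 1.09 to 1.63 against B16PD1, and Serpinf1 -2.20 to -1.41 and -2.48 to -1.68. For both genes, differences in the share of cells moved by less than the SD between tumors of a condition under all 7 alternatives. The ratio of joint detection was 1.19 and ran from 0.98, within tertiles, to 1.25. These values lie inside the counting error of the 26 cells with both, which takes cells as independent and leaves out the spread between tumors.

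Of the 9 genes, none passed the test of B16PD1 minus B16 under any alternative, and 6 changed sign in some, so these 6 have no stable direction after anti-PD1. Sparc stayed lower (-0.56 to -0.054) and Timp2 (0.15 to 0.65) and Tgfb1 (0.032 to 0.52) higher. Tgfb1 was in 2 and 0 cells of the B16 tumors and in 2 and 2 of the B16PD1 tumors, too few to read a direction. With the covariate Spp1 was -0.19, Timp1 -1.24e-05 and Thbs1 -0.020. With the log2 of mean TPM, Serpinf1 was -0.25 and Timp3 -0.054. Leaving out 1 tumor at a time gave -0.12 (without B16008) to 0.25 for Spp1 and -0.043 (without B16PD1000, and -0.0011 without B16007) to 0.59 for Serpinf1. It gave -0.20 (without B16008) to 0.81 for Timp1, -0.50 to 0.15 (without B16007) for Gpnmb, and -0.016 (without B16008, and -0.0067 without B16PD1000) to 0.083 for Thbs1.

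No gene of the 8 lists passed in any contrast or alternative, also where more genes did overall. Over all genes, 7 passed in R499 minus B16 and 8 in R499 minus B16PD1. These counts became 11 and 13 with a pseudocount of 0.1, 3 and 3 with one of 10, 20 and 14 for genes in more than 50 cells, 22 and 16 with all deposited cells, and 28 and 22 with each cell's mean subtracted. Both were 0 with the log2 of mean TPM, no filter on genes, the covariate, or no trend in limma, and the first was 21 with a stricter filter on cells. Leaving out 1 tumor gave 0 (without B16008) to 10, and 3 (without B16PD1000 or R499015) to 8. In B16PD1 minus B16 it gave 0 to 2, the 2 without B16007. The causes were not tested. Subtracting each cell's mean moved the median of all genes from -0.07 to 0.03 in R499 minus B16 and from -0.09 to 0.05 in R499 minus B16PD1, and genes with an unadjusted p under 0.05 that were higher in R499 went from 23.0% to 59.4% and from 15.3% to 67.9%. List medians near 0 therefore have no direction of their own. With 2 tumors a condition and no read counts, a gene found in few cells, such as Thbs1 or Tgfb1, cannot be compared.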
